A study of Canis lupus familiaris with 6 samples.

Results

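Claudins are the membrane proteins that form the strands of the tight junction. Here 10 claudin genes (CLDN1, CLDN2, CLDN3, CLDN4, CLDN7, CLDN8, CLDN10, CLDN12, CLDN16 and CLDN19) were followed in MDCK cells, an epithelial line from canine kidney. They were taken by gene symbol, and all 10 were found among the 41401 symbols of the expression tables, which hold 13 further claudin symbols. The series concerns a cell death that depends on NF-κB and follows a fall in cellular magnesium. PRL1 (gene PTP4A1) and PRL2 (gene PTP4A2) are phosphatases that bind the CNNM magnesium transporters and restrain magnesium export. There were 6 libraries, labelled PRL2-/-; PRL1+/- clone 1 given PRL1 siRNA or control siRNA, PRL2-/-; PRL1+/- clone 2 given PRL1 siRNA or control siRNA, and wild-type cells given PRL1 siRNA or control siRNA, with 1 library each. All 6 libraries, controls included, came from cells transfected with an siRNA 2 times, with RNA extraction 18 h after the second round. The 2 mutant lines are single clones and wild type is 1 line, so in the comparison of clones with wild type the genotype cannot be told apart from the choice of clone. The labels do not name the MDCK strain or say how the alleles were disrupted.

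A tight junction seals the space between epithelial cells and sets which ions may pass through it, and the claudins present decide both properties. CLDN2 and the main CLDN10 variants form pores for small ions, whereas CLDN1, CLDN3, CLDN4 and CLDN7 are mostly described as sealing claudins, and CLDN8 partners with CLDN4 in the collecting duct. CLDN16 and CLDN19 act together in the thick ascending limb of the nephron, where they are needed for the paracellular reabsorption of magnesium and calcium, and mutations of either gene cause familial hypomagnesaemia with hypercalciuria and nephrocalcinosis in humans. In MDCK cells, the level of CLDN2 is known as the main difference between leaky and tight strains.

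The target of the siRNA was measured first. PTP4A1 was at 37.8 FPKM after PRL1 siRNA against 61.7 under control siRNA in clone 1, 37.8 against 69.9 in clone 2, and 33.1 against 63.5 in wild type. It was lower in all 3 lines, and the fit over the lines gave -0.83 ± 0.05 log2 units (SE, n = 3 lines, limma with the line as block, adjusted p = 0.00127). PTP4A2, the gene labelled as lost in the clones, was at 69.1 FPKM after PRL1 siRNA against 80.4 under control siRNA in clone 1, 48.3 against 56.7 in clone 2, and 59.0 against 72.7 in wild type, and fell with the siRNA by 0.25 ± 0.04 log2 units (adjusted p = 0.00572). Compared with wild type, neither transcript was lower in both clones under either siRNA, so the transcript levels do not show the labelled genotype. Whether the altered alleles still yield RNA was not tested. The values are FPKM, fragment counts that the authors scaled to transcript length and library size, so levels of different genes can be compared per length. The absolute depth is unknown. Read from the low values, depth relative to the wild-type control library was 0.766 to 0.914 in the 5 other libraries, lowest in the PRL1 siRNA library of clone 1. All 9 kidney epithelial markers examined averaged at least 1 FPKM, among them CDH1, EPCAM, KRT8 and PAX8, and their sum was 2574 to 3152 FPKM in the clones against 1992 and 2195 FPKM in wild type. No leukocyte (0 of 6), fibroblast (0 of 7) or endothelial (0 of 6) marker averaged 1 FPKM. Summed over each list, leukocyte markers reached at most 0.154 FPKM, fibroblast markers 0.475 and endothelial markers 1.25 FPKM, the last mostly KDR, and PTPRC and CD3E were listed at 0 in every library. In bulk RNA, fewer cells with a transcript and less of it per cell cannot be told apart.

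MDCK cells expressed 8 of the 10 claudins with an average of 1 FPKM or more over all 6 libraries, and CLDN2 was the most abundant in each library. It lay between 309 and 537 FPKM and ranked between place 112 and place 207 of all symbols. CLDN7 followed at 211 to 243 FPKM, with no overlap with CLDN2. CLDN1 came next at 74.5 to 145 FPKM. CLDN2, CLDN7 and CLDN1 together made up 82.1% to 86.1% of the summed FPKM of the 10 claudins, and CLDN2 alone 37.4% to 53.7%. CLDN4 (50.6 to 80.0 FPKM) and CLDN16 (30.9 to 70.9 FPKM) could not be ordered, since CLDN4 was the higher in 3 of 6 libraries. The range of CLDN1 overlapped that of CLDN4, but CLDN1 was above CLDN4 in 6 of 6 libraries. CLDN12 (12.95 to 15.5 FPKM) and CLDN3 (7.91 to 15.8 FPKM) likewise overlapped, and CLDN10 stood near the limit of 1 FPKM. CLDN8 stayed between 0.0639 and 0.792 FPKM, and CLDN19 between 0.0142 and 0.0407 FPKM. Of the pair that acts together in the thick ascending limb, CLDN16 was thus well expressed and CLDN19 close to 0.

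**Figure D1:**
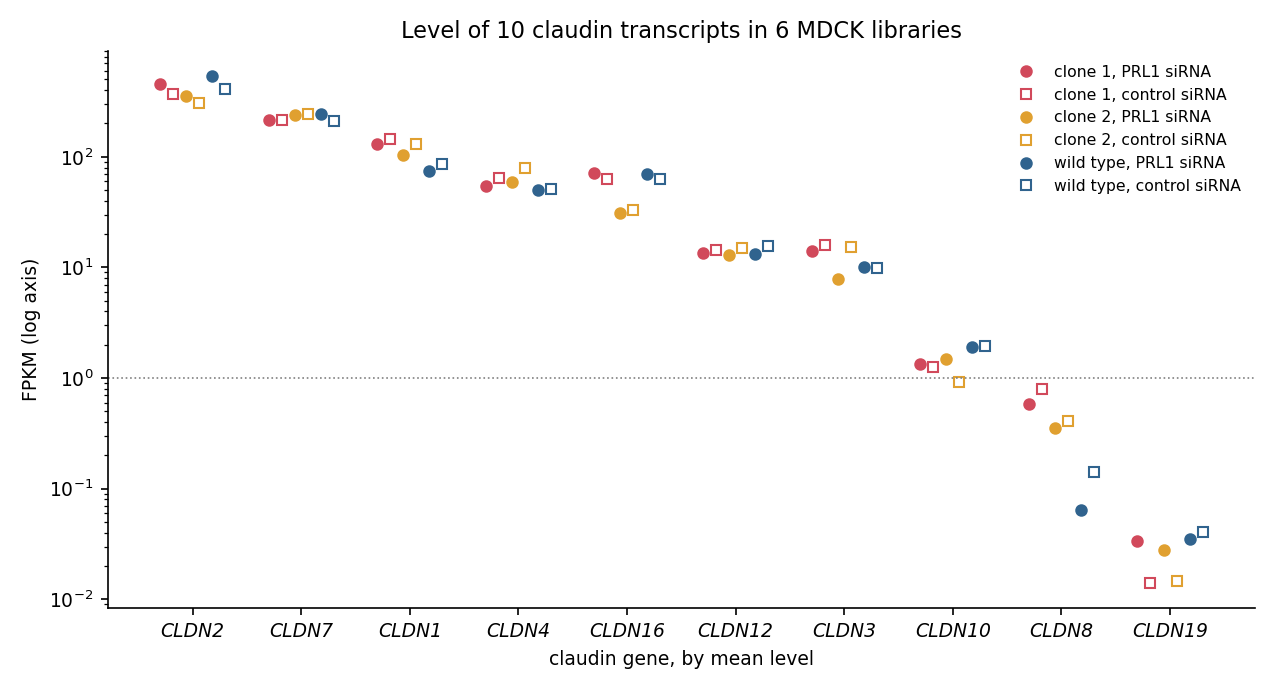
FPKM of the 10 claudin genes on a log axis, 1 point per library (filled circles PRL1 siRNA, open squares control siRNA, colours by line), with genes ordered by their mean over the 6 libraries and a dotted line at 1 FPKM. CLDN2 lies highest, between 309 and 537 FPKM, and CLDN8 and CLDN19 are the genes below the line in every library.

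Among the 13 other claudin symbols, CLDN6 and CLDN34 averaged at least 1 FPKM. CLDN6, a claudin best known from embryonic epithelia, was at 9.89 FPKM after PRL1 siRNA against 11.4 under control siRNA in clone 1, 10.5 against 11.6 in clone 2, and 9.61 against 9.58 in wild type. CLDN34 lay between 5.37 and 6.75 FPKM. The remaining 11 averaged below 1 FPKM and did not exceed 0.942 FPKM in any library, and CLDN11, CLDN17, CLDN18 and CLDN25 were listed at 0 throughout. After knockdown neither CLDN6 (-0.11 ± 0.05 log2 units, limma adjusted p = 0.157) nor CLDN34 (0.05 ± 0.07, adjusted p = 0.547) passed the test described next.

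The effect of PRL1 siRNA was measured within each line, as the difference from the control library of the same line on log2(FPKM + 1), and tested over the 3 lines with limma, with the line as block and p-values adjusted over all 12125 genes that averaged 1 FPKM or more. Of the 8 claudins tested, CLDN2 rose, CLDN1 and CLDN12 fell, and 5 did not pass. Over all genes tested this fit called 39.3%, with 17.6% higher and 21.7% lower, and 50.5% had an unadjusted p under 0.05, so 3 of 8 claudins (37.5%) is near the background. The median over the 8 claudins was -0.05 log2 units, and over all genes tested -0.01. None of the 8 claudins tested reached 2-fold in any line on this scale, where 1.21% of tested genes did so in clone 1, 0.948% in clone 2 and 0.866% in wild type. In FPKM itself, 2 of the untested claudins differed more than 2-fold in 1 line each: CLDN8 by -54.8% in wild type and CLDN19 by 138% in clone 1, at levels below 0.2 FPKM. Each line had 1 library per siRNA, and the labels do not say how independently the cultures were handled. The p-values therefore rest on how far the knockdown difference varied among these 3 lines, with variances moderated over all genes tested.

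**Figure D2:**
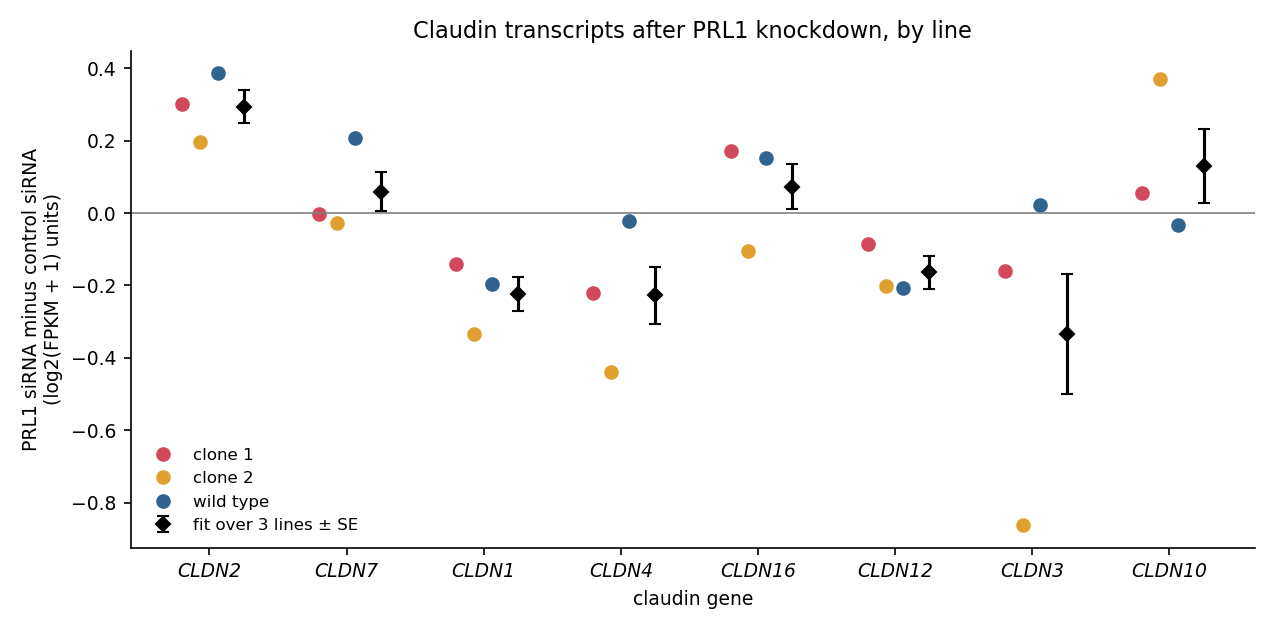
Difference between PRL1 siRNA and control siRNA in log2(FPKM + 1) units for the 8 claudins tested, with 1 coloured point per line and black diamonds for the limma fit over the 3 lines with its SE. CLDN2 lies above 0 and CLDN1 and CLDN12 lie below 0 in all 3 lines, while the widest spread between lines is that of CLDN3, from -0.86 in clone 2 to 0.02 in wild type.

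Of the pore-forming claudins, CLDN2, a channel for cations and water in leaky epithelia, was at 454 FPKM after PRL1 siRNA against 368 under control siRNA in clone 1, 354 against 309 in clone 2, and 537 against 410.3 in wild type. Each PRL1 siRNA library was above its own control, by 23.2%, 14.5% and 30.8% of the control value in clone 1, clone 2 and wild type. CLDN2 rose by 0.29 ± 0.05 log2 units (SE, n = 3 lines, limma, adjusted p = 0.00660), and was higher in 3 of 3 lines, as were 31.6% of genes tested. The lines themselves spanned more than this change: the control level of wild type exceeded the PRL1 siRNA level of clone 2. Without clone 1 the estimate was 0.29 and the adjusted p was 0.0605. CLDN10, whose splice forms make cation- or anion-selective pores and which the tables do not split by isoform, was at 1.34 FPKM after PRL1 siRNA against 1.26 under control siRNA in clone 1, 1.495 against 0.930 in clone 2, and 1.89 against 1.96 in wild type. The lines did not share a direction, and CLDN10 did not pass (0.13 ± 0.10, adjusted p = 0.344).

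The magnesium claudins showed no shared direction. CLDN16 was at 70.9 FPKM after PRL1 siRNA against 62.9 under control siRNA in clone 1, 30.9 against 33.2 in clone 2, and 69.4 against 62.4 in wild type. It was above its control in clone 1 and wild type and below it in clone 2 (0.17, 0.15 and -0.10 log2 units), and the fit gave 0.07 ± 0.06 (limma adjusted p = 0.387). CLDN19, the partner of CLDN16, was at 0.0338 FPKM after PRL1 siRNA against 0.0142 under control siRNA in clone 1, 0.0280 against 0.0146 in clone 2, and 0.0350 against 0.0407 in wild type. These values lie far below 1 FPKM, and CLDN19 was not tested.

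Among the sealing claudins, CLDN1, whose loss opens the barrier of the epidermis in mice, was at 131 FPKM after PRL1 siRNA against 145 under control siRNA in clone 1, 104 against 131 in clone 2, and 74.5 against 85.5 in wild type. All 3 PRL1 siRNA libraries were below the control of their line, and CLDN1 fell by 0.22 ± 0.05 log2 units (SE, n = 3 lines, limma, adjusted p = 0.0161). Genes lower in all 3 lines made up 35.8% of those tested. The call did not hold without clone 1 (adjusted p = 0.0532) or without clone 2 (0.0696). CLDN7, a claudin of the distal nephron and collecting duct, was at 214 FPKM after PRL1 siRNA against 215 under control siRNA in clone 1, 238 against 242 in clone 2, and 243 against 211 in wild type. The clone pairs hardly differed and wild type was higher by 0.21 log2 units after knockdown, and CLDN7 did not pass (0.06 ± 0.05, adjusted p = 0.419; -0.02 in the 2 clones alone).

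CLDN4 was at 54.7 FPKM after PRL1 siRNA against 63.9 under control siRNA in clone 1, 58.7 against 80.0 in clone 2, and 50.6 against 51.4 in wild type. All 3 lines were lower, wild type by 0.02 log2 units only, and the fit of -0.23 ± 0.08 did not pass (limma adjusted p = 0.0697). Leaving out 1 line gave -0.33 without wild type (adjusted p = 0.0262), -0.23 without clone 1 (0.210) and -0.12 without clone 2 (0.239). The first was the only 1 of 10 alternatives in which CLDN4 passed. CLDN3, a close relative and the neighbour of CLDN4 on the chromosome, was at 14.0 FPKM after PRL1 siRNA against 15.8 under control siRNA in clone 1, 7.91 against 15.2 in clone 2, and 10.2 against 9.98 in wild type. The PRL1 siRNA library of clone 2 was the lowest of the 6, at 7.91 FPKM, while wild type scarcely differed, and CLDN3 did not pass (-0.33 ± 0.17, adjusted p = 0.163). Without clone 2 the CLDN3 estimate was -0.07. CLDN8 was lower after knockdown in each line but stayed below 1 FPKM, at 0.583 FPKM after PRL1 siRNA against 0.792 under control siRNA in clone 1, 0.353 against 0.411 in clone 2, and 0.0639 against 0.141 in wild type. It was not tested.

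CLDN12, a widely expressed claudin that lacks the PDZ-binding tail of most family members, was at 13.5 FPKM after PRL1 siRNA against 14.3 under control siRNA in clone 1, 12.95 against 15.03 in clone 2, and 13.3 against 15.5 in wild type. Its 6 values spanned a narrow range, and it was lower after knockdown in each line, as were 35.8% of genes tested. CLDN12 fell by 0.16 ± 0.04 log2 units (SE, n = 3 lines, limma, adjusted p = 0.0342). That call was lost when libraries were rescaled to the same total (adjusted p = 0.0547) or by their median ratio (0.0565), and without clone 1 (0.0868), clone 2 (0.159) or wild type (0.0952).

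Whether knockdown acted differently in clones and wild type was tested as an interaction in a limma fit with 4 groups. Over all 12125 genes 0 passed (smallest adjusted p = 0.474), and 136 (1.12%) had an unadjusted p under 0.05, none of them a claudin. The differences (clones minus wild type) were largest for CLDN3 at -0.54 ± 0.48 log2 units, CLDN4 at -0.31 ± 0.22 and CLDN10 at 0.25 ± 0.23, and for CLDN2 and CLDN1 they were -0.14 ± 0.28 and -0.04 ± 0.24. This order depended on the scale, since on log2(FPKM + 0.1) CLDN10 was at 0.41 and CLDN4 at -0.31. The 4-group fit does not pair the libraries of a line. With the line as replicate block the standard errors for the 8 claudins were 0.0550 to 0.305, and none of them passed (adjusted p = 0.471 to 0.891).

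The clones were next compared with wild type, under each siRNA separately, in the same 4-group limma fit. No gene passed in either comparison, with 0% of 12125 called under PRL1 siRNA (smallest adjusted p = 0.219) and 0% under control siRNA (smallest adjusted p = 0.098). Genes with an unadjusted p under 0.05 made up 14.8% and 13.5%. The spread in this fit came from the 2 clones, with the single wild-type library of a comparison taken to vary as much. The claudin values follow as a description, and the 2 comparisons use different libraries of the same lines. Of the 8 claudins tested, CLDN1 and CLDN4 were higher in all 4 clone libraries than in both wild-type libraries, as were 17.5% of genes tested, and CLDN10 was lower in all 4, as were 10.6%.

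CLDN1 averaged 117 ± 19.3 FPKM in the clones under PRL1 siRNA (SD, n = 2 clones) and stood at 74.5 FPKM in wild type, a difference of 0.64 ± 0.17 log2 units (limma adjusted p = 0.275). Under control siRNA it averaged 138 ± 9.53 FPKM in the clones and stood at 85.5 FPKM in wild type (0.68 ± 0.17, adjusted p = 0.300). Of the 8 claudins tested, CLDN1 showed the largest excess in the clones under either siRNA. Of the 9 epithelial markers, 4 (CDH1, EPCAM, KRT8 and KRT18) were also above wild type in all 4 clone libraries, as were 17.5% of genes tested. PAX2 was below in all 4, as were 10.6%. The part of these markers in the CLDN1 difference was not tested. CLDN4 averaged 56.7 ± 2.83 FPKM in the clones and was at 50.6 FPKM in wild type under PRL1 siRNA (0.16 ± 0.16, adjusted p = 0.681), and 71.9 ± 11.4 FPKM in the clones against 51.4 FPKM in wild type under control siRNA (0.47 ± 0.16, adjusted p = 0.357). CLDN8, though below 1 FPKM, was also higher in the 4 clone libraries (0.353 to 0.792 FPKM) than in wild type (0.0639 and 0.141 FPKM).

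The place of CLDN3 relative to wild type was not the same under both siRNAs, though the interaction did not pass. Under PRL1 siRNA it was at 14.0 FPKM in clone 1 and 7.91 in clone 2, on either side of the 10.2 FPKM of wild type (0.05 ± 0.34 log2 units, limma adjusted p = 0.960), while under control siRNA both clones, at 15.8 and 15.2 FPKM, were above the 9.98 FPKM of wild type (0.59 ± 0.34, adjusted p = 0.527). The sign of the small difference under PRL1 siRNA turned when libraries were rescaled to the same total (-0.02). CLDN2 lay the other way from CLDN1: it averaged 404 ± 70.2 FPKM in the clones, with 537 FPKM in wild type, under PRL1 siRNA (-0.42 ± 0.20, adjusted p = 0.419), and 339 ± 41.6 FPKM in the clones, with 410.3 FPKM in wild type, under control siRNA (-0.28 ± 0.20, adjusted p = 0.601). Clone 2 was the lower of the clones under both siRNAs. CLDN10 was also lower in the clones, at 1.42 ± 0.107 FPKM against 1.89 FPKM in wild type under PRL1 siRNA and 1.09 ± 0.230 against 1.96 FPKM in wild type under control siRNA (-0.26 ± 0.16 and -0.50 ± 0.16 log2 units, adjusted p = 0.527 and 0.343). The log2(FPKM + 1) scale understates differences at this level. Over the alternative settings the CLDN10 estimate under control siRNA ran from -0.80 to -0.39. CLDN7 and CLDN12 differed from wild type by at most 0.11 log2 units in the fit under either siRNA, with standard errors of 0.12 and 0.08.

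**Figure D3:**
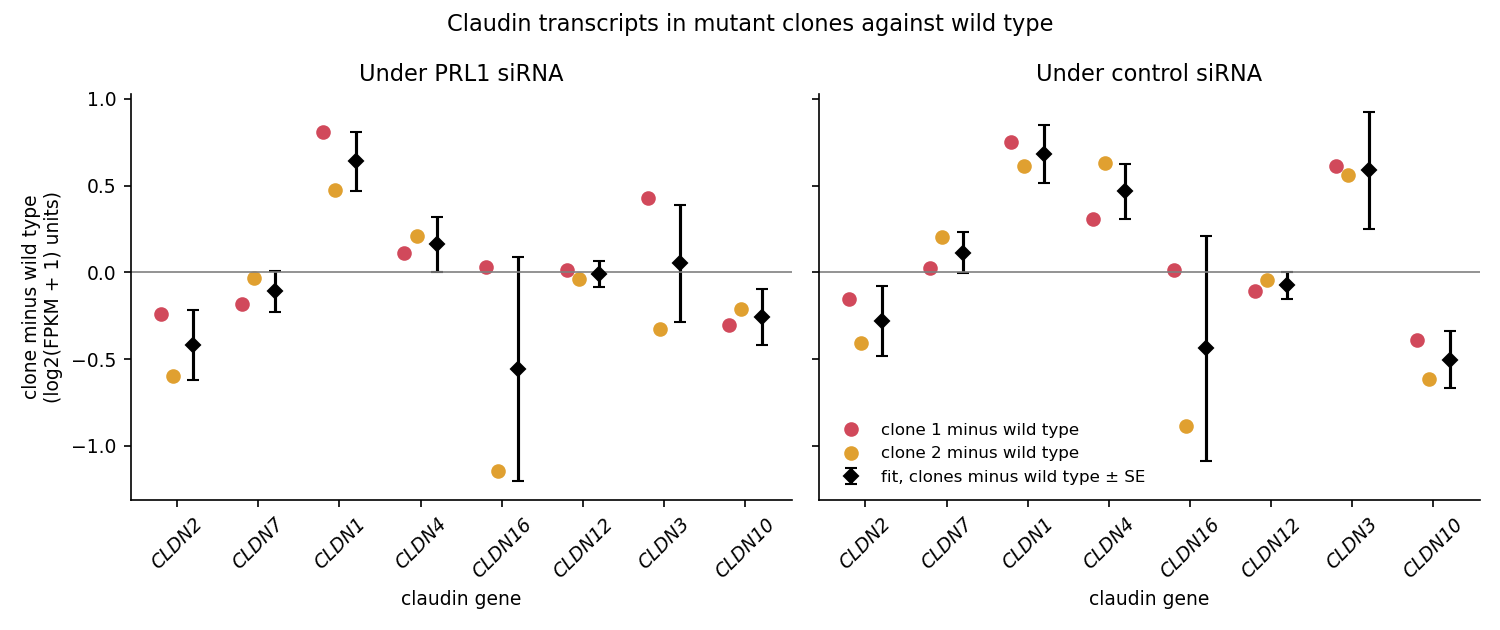
Difference between each mutant clone and wild type in log2(FPKM + 1) units for the 8 claudins tested, under PRL1 siRNA (left) and control siRNA (right), with coloured points for the clones and black diamonds for the limma fit with its SE. CLDN1 lies above 0 and CLDN2 and CLDN10 below 0 for both clones in both panels, and CLDN16 is near 0 in clone 1 and at -1.14 and -0.89 in clone 2.

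CLDN16 set the 2 clones apart. Clone 2 had 30.9 FPKM after PRL1 siRNA and 33.2 under control siRNA, below every other library, whereas clone 1 (70.9 and 62.9 FPKM) lay beside wild type (69.4 and 62.4 FPKM). Among all genes tested, 12% had both clone 2 libraries below the other 4. The fitted differences between clones and wild type, -0.56 ± 0.65 log2 units under PRL1 siRNA and -0.44 ± 0.65 under control siRNA, had wide errors (limma adjusted p = 0.729 and 0.813), and without clone 2 they were 0.03 and 0.01. CLDN1, the protein-coding gene next to CLDN16 in RefSeq, was higher in both clones than in wild type. CLDN16 had the widest range of the claudins tested (1.17 log2 units over 6 libraries). The genes whose 6 centred log2 values lay closest to those of CLDN16, by root mean square difference, were INPP5A, an inositol phosphatase (0.09), ABCC2, an apical organic anion pump of the proximal tubule (0.10), and SLC29A1, a nucleoside transporter (0.12). ABCC2, given for PRL1 siRNA and then control siRNA, was at 48.9 and 45.3 FPKM in clone 1, 24.8 and 26.2 in clone 2, and 54.2 and 53.7 in wild type. FXYD2, a regulator of the sodium pump whose mutation causes hypomagnesaemia in humans, was likewise lowest in clone 2, at 89.5 FPKM after PRL1 siRNA against 63.4 under control siRNA in clone 1, 26.0 against 21.4 in clone 2, and 126 against 90.2 in wild type.

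**Figure D4:**
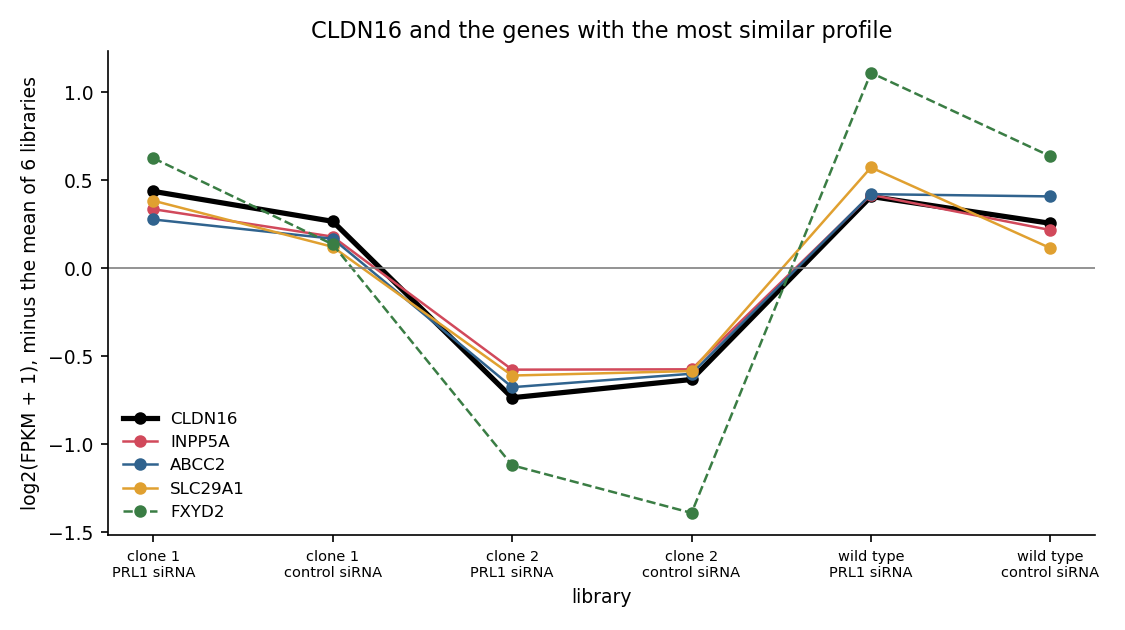
log2(FPKM + 1) minus its mean over the 6 libraries for CLDN16 (thick black), the 3 genes with the most similar profile (INPP5A, ABCC2 and SLC29A1) and FXYD2 (dashed), with the libraries of clone 1, clone 2 and wild type along the axis and lines drawn to guide the eye. CLDN16 is at 30.9 and 33.2 FPKM in the clone 2 libraries, the low points of all 5 curves, and at 62.4 to 70.9 FPKM in the other 4.

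Beside the claudins, a list of 40 symbols chosen as other tight junction genes was examined, without a check that each is a claudin partner. Of the 40, 38 were in the tables and 29 averaged at least 1 FPKM. MPP5 and PALS1 are names of the same gene, found as MPP5, so only JAM2 was absent. After PRL1 knockdown 5 of the 29 rose, 12 fell and 12 did not pass (limma over the 3 lines). In this list 58.6% of the tested genes were called. Among all genes tested 39.3% were called, 17.6% higher and 21.7% lower, and the difference in share was not tested. The median of the list was -0.01 against -0.01 over all genes tested. The deepest fall was in AMOTL2, an angiomotin that binds YAP and is also one of its known targets, at 10.3 FPKM after PRL1 siRNA against 23.8 under control siRNA in clone 1, 12.2 against 31.6 in clone 2, and 8.68 against 16.3 in wild type. It was lower in all 3 lines, as were 35.8% of genes tested, and the fall was 1.09 ± 0.09 log2 units (adjusted p = 0.00165). PATJ, a scaffold of the Crumbs polarity complex, fell by 0.35 ± 0.04 and SYMPK, which encodes symplekin, by 0.27 ± 0.06 (adjusted p = 0.00234 and 0.0162).

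Occludin, encoded by OCLN, is a tight junction membrane protein outside the claudin family, and its transcript was at 27.4 FPKM after PRL1 siRNA against 31.5 under control siRNA in clone 1, 22.5 against 29.0 in clone 2, and 24.2 against 27.6 in wild type. It was lower in each line and fell by 0.24 ± 0.05 log2 units (SE, n = 3 lines, limma, adjusted p = 0.0132). TJP1 encodes ZO-1, a scaffold to which most claudins bind by their tails. It fell by 0.12 ± 0.03 (adjusted p = 0.0430), a call lost under both rescalings (adjusted p = 0.0813 and 0.0966). Among the rises, the largest were in MAGI1, a scaffold, by 0.27 ± 0.06 and in the polarity gene PARD3 by 0.24 ± 0.05 (adjusted p = 0.0222 and 0.0118). MARVELD2, which encodes tricellulin, and CGN, which encodes cingulin, did not pass (-0.12 ± 0.06 and 0.03 ± 0.03, adjusted p = 0.174 and 0.458). Without clone 1 only 3 of the 17 calls in this list held, without clone 2 only 4, and without wild type 11. All 17 had the same direction in all 3 lines, so leaving out a line could not turn it.

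**Figure D5:**
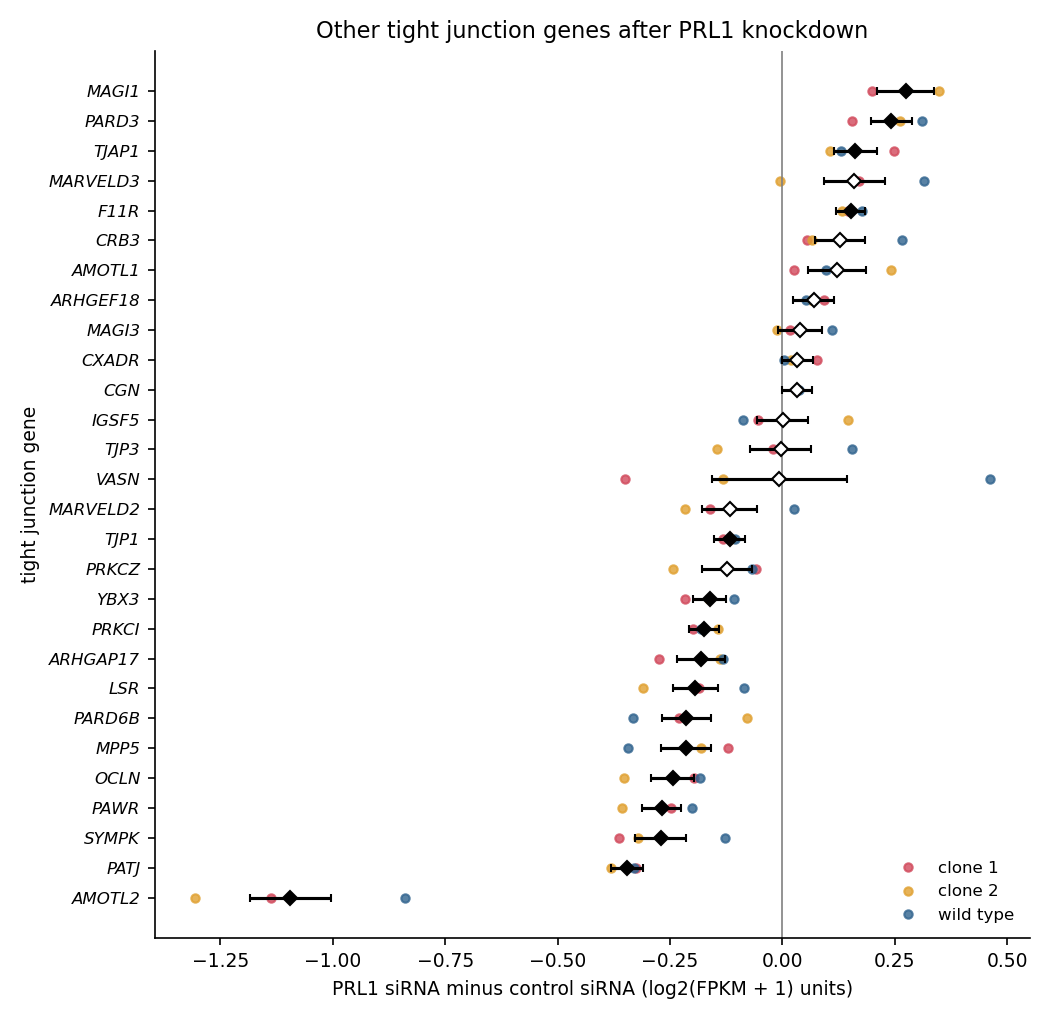
Difference between PRL1 siRNA and control siRNA in log2(FPKM + 1) units for 28 tested genes of the tight junction list. Each line has 1 coloured point. Diamonds give the limma fit over the 3 lines with its SE (filled where the adjusted p was below 0.05, open otherwise). AMOTL2 stands apart at -1.09, and the other 27 genes lie between -0.35 and 0.27.

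In the clones against wild type no gene of the tight junction list passed. Under PRL1 siRNA the lowest were CRB3, a Crumbs protein (-0.40 ± 0.09 log2 units), the vasorin gene VASN (-0.39 ± 0.13) and PARD3 (-0.28 ± 0.08), and the highest AMOTL2 (0.33 ± 0.21), PAWR (0.31 ± 0.07) and the angiomotin-like AMOTL1 (0.27 ± 0.18), with limma adjusted p-values from 0.242 to 0.546. Under control siRNA the lowest were MPP5, now named PALS1 (-0.23 ± 0.08), PATJ (-0.20 ± 0.06) and CRB3 (-0.20 ± 0.09), 3 partners in the Crumbs complex, and the highest AMOTL2 (0.71 ± 0.21), PAWR (0.42 ± 0.07) and VASN (0.32 ± 0.13), with adjusted p-values from 0.250 to 0.427. For the interaction the outermost members were VASN (-0.70 ± 0.18), AMOTL2 (-0.38 ± 0.29) and TJP3 (-0.24 ± 0.42) on the lower side and MPP5 (0.19 ± 0.11), the polarity gene PARD6B (0.18 ± 0.17) and IGSF5, a junctional adhesion molecule gene (0.13 ± 0.23) on the upper side, and none passed. VASN was higher after knockdown in wild type (0.46) and lower in clone 1 (-0.35) and clone 2 (-0.13).

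Of 30 genes known to act on claudin transcription or turnover, 23 were tested, and 5 rose, 3 fell and 15 did not pass after knockdown (median 0.03). The share called, 34.8%, was below the 39.3% of all genes tested. STAT3, a cytokine-activated transcription factor, was at 42.4 FPKM after PRL1 siRNA against 27.5 under control siRNA in clone 1, 50.1 against 36.5 in clone 2, and 37.5 against 28.6 in wild type, and rose by 0.48 ± 0.05 log2 units (SE, n = 3 lines, limma, adjusted p = 0.00274). SNAI1, which encodes Snail, a repressor of claudin and occludin genes, was at 13.8 FPKM after PRL1 siRNA against 11.8 under control siRNA in clone 1, 22.4 against 15.8 in clone 2, and 19.2 against 13.2 in wild type. It rose by 0.40 ± 0.07 (adjusted p = 0.00914), though without clone 2 the adjusted p was 0.0518. GRHL1, a grainyhead factor of epithelia, fell by 0.29 ± 0.05 and the kinase gene WNK1 by 0.29 ± 0.04 (adjusted p = 0.0116 and 0.00537). Further calls, named after their values were seen, were rises of 0.18 ± 0.05 in TGFB1 and 0.19 ± 0.05 in EGFR, and a fall of 0.14 ± 0.04 in EPCAM, whose protein binds CLDN7 and CLDN1. Of the 8 calls, 2 held without clone 1, 2 without clone 2 and 6 without wild type. WNK4, a kinase of distal salt transport, was at 5.79 FPKM in clone 1 and 5.20 in clone 2, with 10.0 in wild type, under PRL1 siRNA (-0.76 ± 0.16, adjusted p = 0.242), and at 4.99 FPKM in clone 1 and 3.85 in clone 2, with 9.62 in wild type, under control siRNA (-0.98 ± 0.16, adjusted p = 0.250). SNAI2, which encodes Slug, was the other regulator with a large negative estimate in the clones under both siRNAs (-0.47 ± 0.60 and -0.78 ± 0.60), and the membrane protease genes ST14 (0.53 ± 0.16 and 0.68 ± 0.16) and PRSS8 (0.53 ± 0.21 and 0.70 ± 0.21) had the largest positive ones; none passed. Interaction estimates ran from -0.38 ± 0.89 for OVOL1, an epithelial zinc finger factor, and -0.17 ± 0.48 for SNAI1 to 0.31 ± 0.84 for SNAI2 and 0.33 ± 0.22 for KLHL3, a ubiquitin ligase adaptor for WNK kinases, and none passed.

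The segment in which CLDN16 normally acts was checked with 23 genes of the thick ascending limb and distal magnesium handling, of which 22 were in the tables and 12 were tested. The list was split. Of the 22, 10 stayed below 0.2 FPKM in every library, and among these UMOD, SLC12A1, KCNJ1, CASR and BSND, named after their values were seen, did not exceed 0.00900 FPKM in any library, while CLDN16 stood at 30.9 FPKM or more. Other members were well expressed, with EGF, the epidermal growth factor gene, at 10.99 to 21.6 FPKM, KCNJ16 at 4.08 to 15.8 FPKM and FXYD2 at 21.4 to 126 FPKM. After knockdown 5 of the 12 rose, 1 fell and 6 did not pass, with a median of 0.22 log2 units against -0.01 over all genes tested. Among all genes, 17.6% were called higher and 21.7% lower. SLC41A1, a magnesium exporter, rose by 0.55 ± 0.05 and PCBD1, a transcriptional cofactor, by 0.43 ± 0.05 (limma adjusted p = 0.00174 and 0.00248). Further rises, named after their values were seen, were 0.41 ± 0.05 in FXYD2 and 0.36 ± 0.07 in KCNJ16. Of the 6 calls, 4 held without clone 1, 3 without clone 2 and 5 without wild type. TRPM6, the apical magnesium channel, fell by 0.28 ± 0.06 (adjusted p = 0.0227), a call lost without clone 1, clone 2 or wild type (adjusted p = 0.0924, 0.0695 and 0.0616), and TRPM7 was at -0.07 ± 0.05 (adjusted p = 0.352). Against wild type the clones had medians of -0.40 under PRL1 siRNA and -0.19 under control siRNA, where all genes tested had 0.03 under each, and 6 of the 12 were lower in all 4 clone libraries than in wild type, as were 10.6% of genes tested. No gene of the list passed in the clones. KCNJ16, a potassium channel subunit of the distal nephron, was at 7.36 FPKM in clone 1 and 6.20 in clone 2, with 15.8 in wild type, under PRL1 siRNA (-1.12 ± 0.18, adjusted p = 0.221), and at 5.29 FPKM in clone 1 and 4.08 in clone 2, with 14.1 in wild type, under control siRNA (-1.42 ± 0.18, adjusted p = 0.245). The other estimates set by the naming rule were -1.36 ± 1.01 and -1.26 ± 1.01 for FXYD2, 0.32 ± 0.08 and 0.18 ± 0.08 for TRPM7, and 0.23 ± 0.25 and 0.29 ± 0.25 for SLC41A1 (PRL1 siRNA, then control siRNA). For the interaction they were -0.33 ± 0.19 for the sodium pump subunit ATP1B1, -0.24 ± 0.31 for the magnesium transporter CNNM4, 0.14 ± 0.12 for TRPM7 and 0.30 ± 0.25 for KCNJ16. None of these passed.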

How the data were processed

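Values are FPKM per gene symbol, computed by the authors and deposited as 1 table per library; per the submitters' processing notes they come from HISAT2 2.1.0, Cufflinks 2.2.1 and Cuffdiff, whose version is not given. Per the labels' protocols, RNA was extracted with miRNeasy columns and sequenced from TruSeq stranded mRNA libraries. The genome build, annotation and strand setting behind them were not given in the sources used here. Overlapping or similar genes may therefore share fragments, and no coordinates are printed. RefSeq names of assembly UU_Cfam_GSD_1.0 matched all 10 claudins and were used for names and neighbours only.

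FPKM values hide the number of fragments. Relative depth was taken from the most common ratio between 2 libraries among genes below 0.1 FPKM, within 0.01 log2 units. No pair of libraries held identical values.

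On the log2(FPKM + 1) scale, which understates changes of low genes, limma 3.58.1 (R 4.3.3) was fitted with moderated variances and an intensity trend to the 12125 genes that averaged 1 FPKM or more, with Benjamini-Hochberg adjustment and a threshold of 0.05. The knockdown fit has the line as block and 2 residual degrees of freedom. The 4-group fit for clones against wild type and for the interaction also has 2. Both come from the difference between the same 2 clones, taken once per siRNA. They are not independent, so the errors and p-values of that fit are approximate. Libraries of a line are paired because they come from the same line; the difference between the clones correlated across genes between the siRNAs (r = 0.595). The fits were also run on simulated data, in which a gene had the same level in every line apart from planted changes and noise. Real lines and clones differ, so that run does not show how the 4-group fit behaves here. Knockdown within 1 line has no replicate and no p-value.

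The members, the gene lists and the naming rule were chosen with earlier results of these data known. The rule names all 10 claudins, other claudins of at least 1 FPKM, OCLN, TJP1, MARVELD2, CGN and PTP4A1, the 3 outermost junction genes and the 2 outermost regulators and distal genes per direction in each comparison, and the 3 genes most like the claudin of widest range. Some genes that the lists or the rule take are not reported here; counts and medians include them. The FXYD2 profile beside CLDN16, the values of the segment markers, CLDN15, CLDN23 and ratios between claudins were added after values were seen.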

Additional observations from a re-analysis of the deposited data

Results flagged for a closer look

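CLDN19 was picked out because its knockdown difference had one sign in wild type and the other in both clones. On log2(FPKM + 1) it was 0.0277 in clone 1, 0.0189 in clone 2 and -0.00802 in wild type. All 6 levels lie between 0.0142 and 0.0407 FPKM, below the limit for testing, so the difference between clones and wild type was not tested.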

How the results depend on the processing

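Of 12125 genes, 4762 passed after knockdown over the 3 lines; the count was 1179 of 27931 with no filter, 416 with no replicate block, and 1709 to 4037 with 1 line left out. The CLDN2, CLDN1 and CLDN12 changes kept their directions in all 10 alternatives each, but most of these could not have turned them. No filter, the minimum of 5 FPKM, no intensity trend and no replicate block leave the estimate itself unchanged. Leaving out 1 line cannot turn a sign shared by all 3 lines. Only the pseudocount of 0.1 and the rescalings could have turned a direction, and they did not. The limma calls of CLDN2, CLDN1 and CLDN12 were lost with no filter (adjusted p = 0.0875, 0.121 and 0.119). They were also lost with no replicate block (0.376, 0.664 and 0.163), where the spread between lines enters the error. The lists lost most calls too: with no filter 2 of 17 junction, 0 of 8 regulator and 1 of 6 distal calls held, and with no replicate block 0 held in each list. AMOTL2 was then at an adjusted p of 0.0527 and 0.0649, and STAT3 at 0.0576 and 0.126. For clones against wild type, 0 genes passed as tested, and with no filter 240 passed under PRL1 siRNA and 165 under control siRNA, and 4 passed under control siRNA with no intensity trend. For the interaction, 157 passed with no filter, 4 with no trend and 1 with the line as replicate block. Leaving out any 1 clone library, or the wild-type library a comparison does not need, left these 3 counts at 0. The cause of these shifts was not tested. None of the 30 claudin differences within a line reached 2-fold on log2(FPKM + 1), on log2(FPKM + 0.1) or under either rescaling. Of the other alternatives for single claudins within a line, 83 of 90 moved by less than the spread between lines, and all 7 that moved more came from the pseudocount of 0.1 on CLDN8, CLDN10 and CLDN19.

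Signs turned for uncalled estimates when 1 library or line was left out. After knockdown the range was -0.0150 to 0.102 for CLDN7 (negative without wild type) and -0.0253 to 0.0996 for CLDN34 (negative without clone 1). For clones against wild type under PRL1 siRNA it was -0.326 to 0.429 for CLDN3 (negative without clone 1, and -0.0245 when rescaled to the same total), -0.0372 to 0.0148 for CLDN12 and -1.14 to 0.0290 for CLDN16 (both positive without clone 2), and under control siRNA -0.888 to 0.0111 for CLDN16 (positive without clone 2). For the interaction it was -0.208 to 0.126 for CLDN1, -0.316 to 0.0393 for CLDN2, -0.706 to 0.467 for CLDN16, -0.0242 to 0.290 for IGSF5, -0.924 to 0.160 for OVOL1, -0.503 to 0.159 for SNAI1, -0.256 to 0.881 for SNAI2 and -0.502 to 0.0238 for TJP3. No paired version of clones against wild type exists, because that difference lies between lines, and CLDN10 has no value at a minimum of 5 FPKM. With depth unknown and 3 lines, low claudins such as CLDN8 and CLDN19 allow no test.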

Other observations

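The balance between the leading pore claudin and the sealing claudins CLDN1 and CLDN7 was computed after the values were seen. The ratio of CLDN2 to CLDN1, both per length, was 3.46 after PRL1 siRNA against 2.55 under control siRNA in clone 1, 3.42 against 2.36 in clone 2, and 7.20 against 4.80 in wild type. It was higher after knockdown in each line and lower in the 4 clone libraries than in the 2 of wild type. The rise follows from the higher CLDN2 and lower CLDN1 values given above and is not a separate result. Within each siRNA the same holds for the clones, where CLDN2 was lower and CLDN1 higher than in wild type. The ratio of CLDN2 to CLDN7 was 2.12 against 1.72 in clone 1, 1.49 against 1.28 in clone 2, and 2.204 against 1.95 in wild type.

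Below 1 FPKM, CLDN15, a cation-pore claudin of the intestine, was at 0.762 FPKM after PRL1 siRNA against 0.435 under control siRNA in clone 1, 0.781 against 0.503 in clone 2, and 0.942 against 0.623 in wild type. CLDN15 was higher after knockdown in each line, as were 31.6% of genes tested. CLDN23, which was low in the wild-type control, was at 0.650 FPKM after PRL1 siRNA against 0.796 under control siRNA in clone 1, 0.257 against 0.452 in clone 2, and 0.382 against 0.0742 in wild type, higher after knockdown in wild type and lower in both clones. Neither was tested, and both were singled out after their values were seen.

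The summed FPKM of the 10 claudins was 954 after PRL1 siRNA against 886 under control siRNA in clone 1, 808 against 828 in clone 2, and 999.9 against 848 in wild type. In each line CLDN2 contributed the largest single difference to the sum.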
